A study of Mus musculus with 4 samples.

Results

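Proteins that T cells secrete or carry on their surface, cytokines, receptors and granule proteases among them, fold inside the endoplasmic reticulum. The 10 genes described here are Hspa5, Hsp90b1, Xbp1, Calr, Canx, Pdia3, Pdia4, Pdia6, Hyou1 and Sdf2l1, which encode 9 folding factors of that compartment and the transcription factor XBP1. They were chosen by name from a table of 35275 Ensembl genes, and all 10 were found in it and passed the filter on low values (a mean of at least 1 RPKM, which 11625 genes met). RPKM values are reads scaled to the length of the transcript and to the depth of the library. The cells were double-negative regulatory T cells (DNT), mouse T cells with an αβ receptor that lack CD4 and CD8 and can restrain other immune cells. They were grown out of naive CD4 T cells and sorted as CD3+ TCRαβ+ NK- CD4- CD8-. The groups were 2 libraries from wild-type C57BL/6 cells (WT1 and WT2, numbered as in the labels) and 2 from OX40-knockout cells of the same strain (KO1 and KO2). OX40, encoded by Tnfrsf4, is a costimulatory receptor of activated T cells. No time point, age, knockout allele or number of animals was found in the labels, so the 2 libraries of a genotype may be technical repeats and every p-value rests on their spread alone.

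As background, HSPA5 (also called BiP) is the HSP70 of the compartment, and HYOU1 and SDF2L1 work with it. HSP90B1 is its HSP90, and CALR and CANX are lectins that hold unfinished glycoproteins while PDIA3 joins their disulfide bonds. PDIA4 and PDIA6 are further disulfide isomerases. When unfolded protein builds up, the sensor IRE1 cuts a short intron out of the Xbp1 mRNA, and the spliced form encodes an activator of genes for folding, degradation and secretion. ATF6, another sensor, is released as a transcription factor that binds the endoplasmic reticulum stress element (ERSE) of chaperone promoters.

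The Xbp1 intron is shown first, because a value for the whole gene does not tell its spliced and unspliced forms apart. It lies in exon 4 of 5 of the coding transcript, on the plus strand at chr11:5524279-5524304 of GRCm38 (GENCODE vM21 transcript sequence), and the capitals mark its 26 bases, with 22 bases on either side.
Xbp1 intron: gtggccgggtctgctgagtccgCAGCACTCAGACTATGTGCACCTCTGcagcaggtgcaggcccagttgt
Since 26 is no multiple of 3, its removal shifts the reading frame, and the open frame goes from 267 codons to 371. Of the 4 annotated Xbp1 transcripts 3 contain the intron and 0 carry the spliced junction. The deposited value therefore cannot be split into spliced and unspliced forms. Whether reads across the spliced junction were counted is not known.

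Promoters were read next for the ERSE. Chaperone genes are known for this sequence, so its share among them is a description and no independent result. RefSeq promoter windows of 300 bases (250 before and 50 after the start, GRCm38.p6) matched 9 of the 10 genes, all but Hyou1. An ERSE, written CCAAT, 9 bases and CCACG and sought on both strands, was found in 5 of the 9 genes (55.6%). Among all 27022 genes with a window 37 held one (0.137%), and among all 32851 windows 39 did (0.119%). The stretches below hold these matches in capitals with 12 bases around them, read in the direction of the gene. A match on the opposite strand reads CGTGG, 9 bases, ATTGG.
Hspa5 (chr2:34772013-34772055, plus strand): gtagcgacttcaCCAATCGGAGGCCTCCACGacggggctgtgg
Calr (chr8:84847063-84847105, minus strand): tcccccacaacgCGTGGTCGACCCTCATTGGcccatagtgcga
Canx (chr11:50325788-50325830, minus strand): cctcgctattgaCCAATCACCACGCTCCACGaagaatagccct
Pdia6 (chr12:17266479-17266521, plus strand): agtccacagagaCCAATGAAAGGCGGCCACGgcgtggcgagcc
Hsp90b1 (chr10:86705521-86705668, minus strand): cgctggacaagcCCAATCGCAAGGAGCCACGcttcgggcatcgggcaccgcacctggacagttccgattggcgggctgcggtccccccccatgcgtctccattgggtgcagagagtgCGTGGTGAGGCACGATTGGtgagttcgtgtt
The match begins 65 bases before the start in Hspa5, and Hsp90b1 is the only one of the 9 with 2 matches. In Pdia3, Pdia4, Sdf2l1 and Xbp1 these letters were not in the window. The ERSE-II (ATTGG, 1 base, CCACG, which shares a part with the ERSE) and the core TGACGTGG were each found in 0 of the 9 genes, against 0.0444% and 0.714% of all genes. The E-box CACGTG was found only in Calr, against 8.09% of all genes. A match describes the letters of the window and shows no binding.

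Most of the folding factors carry a retrieval signal of the KDEL type at their end, which returns them from the Golgi. Their last 4 codons are shown in capitals, with the stop codon in lower case (GENCODE vM21), to set the soluble chaperones beside the membrane protein calnexin.
Hspa5: AAAGATGAGTTGtag
Calr: AAGGATGAGCTGtag
Sdf2l1: CACGATGAACTCtga
Canx: CCACGAAGAGAGtga
Hsp90b1, Calr and Pdia6 encode the same 4 residues as Hspa5, so 4 of the 10 share them, in 4 different codon spellings. With Pdia4, Hyou1 and Sdf2l1, 7 share the last 2 residues, and Canx, Pdia3 and Xbp1 do not. Only identity to Hspa5 was read, which does not tell whether Pdia3 has a retrieval signal of another spelling.

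The libraries were sequenced to similar depth, with 23215528 reads in WT1, 24395743 in WT2, 22220888 in KO1 and 22571186 in KO2. The αβ T cell genes Cd3e, Cd3d, Cd3g, Trac, Cd247 and Lck summed to between 1539 and 2077 RPKM. Myeloid markers summed to between 17.8 and 25.7 RPKM, and stromal and epithelial markers, mostly Pecam1 and Epcam, to between 48.0 and 131 RPKM. The sort excluded CD4, and Cd4 stood at 10.1 RPKM in KO1 against 0.82 to 2.06 RPKM elsewhere. KO1 stood apart from the rest, with 578 genes at least 2-fold away from KO2 on the log2(RPKM + 1) scale, 515 from WT2 and 289 from WT1. WT1 and WT2 were that far apart for 132 genes, and WT2 and KO2, of different genotype, for only 58. Tnfrsf4 itself was at 18.2 and 12.3 RPKM in WT and 12.1 and 9.38 RPKM in KO libraries. Its transcript was thus read in every library, and the deleted segment of the gene is not named in the labels. In bulk RNA, fewer cells of a type and less RNA per cell cannot be told apart.

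The chaperone genes stood among the abundant transcripts of DNT. Hspa5 was at 1051 and 1015 RPKM in WT and 1172 and 1183 RPKM in KO libraries, which placed it between the 68th and the 99th of the 11625 genes. Calr ranked between 101 and 116, and Pdia3 between 142 and 155. Sdf2l1, the lowest of the 10 in WT1, WT2 and KO2, ranked between 1136 and 1469, and in KO1 Pdia4 was lower, at rank 1221. Together the 10 genes made up 0.560% and 0.575% of all reads in the WT libraries and 0.569% and 0.626% in the KO libraries, at the smallest whole numbers of reads that fit.

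**Figure D1:**
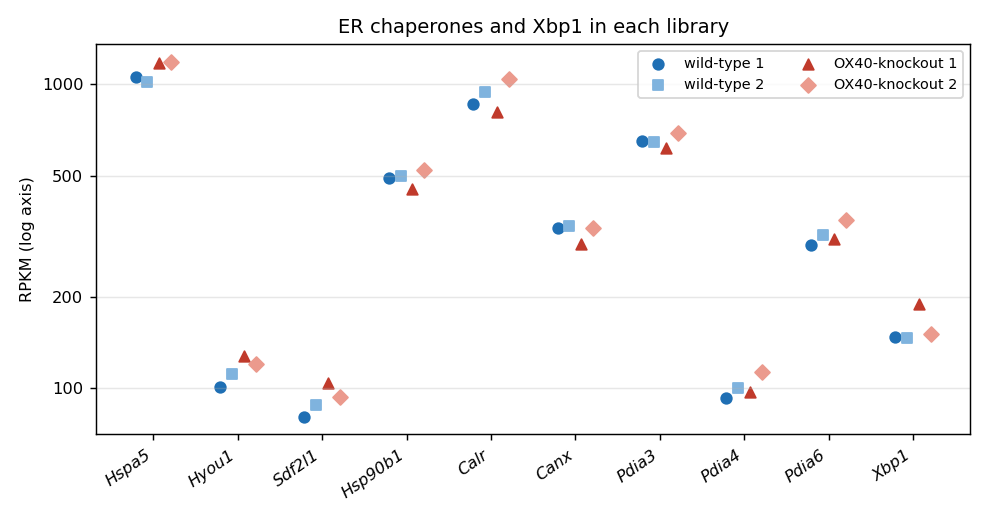
RPKM of the 10 genes (log axis) in each library, 1 point per library, with genes ordered by role along the horizontal axis. Hspa5 is the highest, at 1015 to 1183 RPKM, Sdf2l1, at 80.7 to 104, is the lowest except in KO1, where Pdia4 is lower, and for each gene the 4 libraries lie within 1.29-fold of each other.

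The order of levels depended on the transcript length behind the values. For 7 of the 10 genes the length that turns the RPKM into whole reads lay within 1 base of the mean length of all annotated transcripts, short non-coding ones included. Calr was given 1176 bases, while its coding transcript has 2184. As deposited, Pdia3 stood above Hsp90b1 in all 4 libraries, at 616 to 689 against 451 to 523 RPKM. With the same reads set over the longest coding transcript, Hsp90b1 was at 258 to 300 and Pdia3 at 257 to 288 RPKM, and Hsp90b1 was the higher in each library. Calr remained first of the 7, at 434 to 557 RPKM. Canx and Pdia6 changed places in part: as deposited Canx was the higher in both WT libraries and Pdia6 in both KO libraries, and on the coding scale Pdia6, at 159 to 191 RPKM, was above Canx, at 134 to 153 RPKM, in all 4. For Hspa5, Pdia4 and Hyou1 the length matched no annotated mean and a common factor of the reads is unknown, so their place on the coding scale is not given. A length is the same in every library, and comparisons between genotypes do not depend on it.

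**Figure D2:**
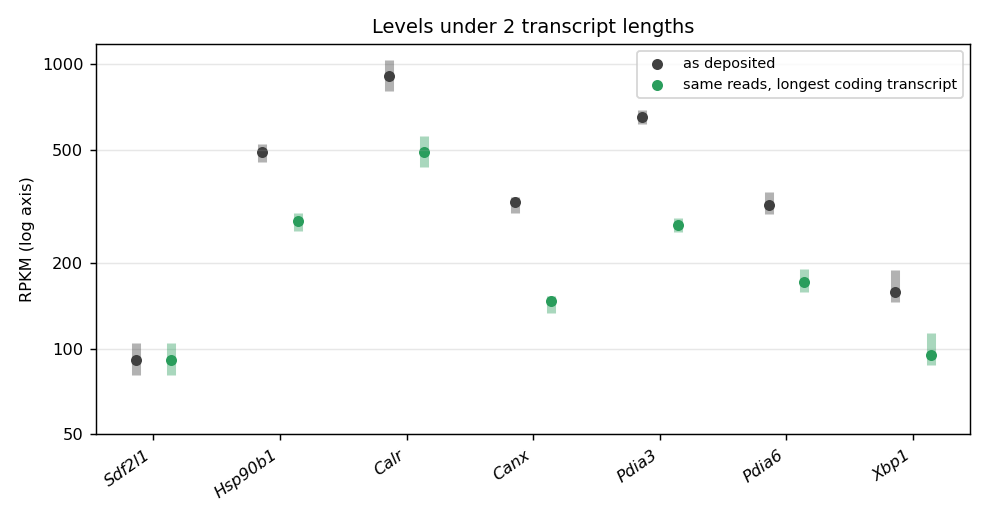
Mean RPKM (points, log axis) and range over the 4 libraries (bars) of the 7 genes whose length was settled, as deposited in grey and with the same reads over the longest coding transcript in green. Sdf2l1 has 1 transcript and does not move, while Pdia3 goes from above Hsp90b1 to below it.

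The genotypes were then compared. Across the 10 genes, 8 were higher on average in the knockout (80%, against 43.4% of all genes), by 1.17-fold at most, and 2 were lower (against 56.6%). None passed the test. With limma, 0 of the 10 had an adjusted p under 0.05, as did 0 of all 11625 genes (0%). At an unadjusted p under 0.05 there were 0 of the 10 and 162 of all genes (1.39%, made up of 0.551% higher and 0.843% lower). In both KO libraries 4 of the 10 lay above the higher WT library, where 8.66% of all genes did, and 1 lay below the lower WT library, where 17.8% did. The median log2 change was 0.12 over the 10 and -0.03 over all genes. Where libraries were scaled by TMM factors 9 of the 10 were higher on average and 6 were higher in both KO libraries, where 12.2% of all genes were. After a GC correction all 10 were higher on average and 6 in both, where 11% of all genes were. The share of all genes higher on average was not counted at these settings, and the 43.4% above is for unscaled values. Over all genes the median log2 change was 0.001 with TMM factors and -0.01 after the GC correction. These genes were chosen with earlier results of the same libraries known, so their counts are a description.

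HSPA5 and its helpers gave 3 of the 4 genes that were higher in both KO libraries. Hspa5 stood at 1033 ± 25.9 RPKM in WT and 1177 ± 7.75 RPKM in KO (mean ± SD, n = 2 libraries each, as for all means that follow), a 1.14-fold difference with a 95% interval of 0.927 to 1.40 (limma adjusted p = 0.974). Both KO libraries lay above both WT libraries, and no other of the 10 genes had KO1 and KO2 so close. Its log2 change was 0.16 between the libraries numbered 1 and 0.22 between those numbered 2.

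Hyou1, a nucleotide exchange factor for HSPA5, was at 101 and 112 RPKM in WT and 128 and 121 RPKM in KO libraries. The means were 106 ± 7.69 and 124 ± 5.37 RPKM, a log2 change of 0.23 with a standard error of 0.11 (limma adjusted p = 0.974). That was the lowest unadjusted p of the 10, at 0.0955 in limma. Sdf2l1, which is found in complexes of HSPA5 with its J-domain partners, was at 80.7 and 87.9 against 104 and 93.4 RPKM, or 84.3 ± 5.09 against 98.9 ± 7.7 RPKM (log2 change 0.23, SE 0.11, limma adjusted p = 0.974). The Sdf2l1 change was 0.14 with the GC correction and 0.15 without KO1. Hyou1 and Sdf2l1 were both lowest in WT1 and highest in KO1, and their groups did not overlap. For Sdf2l1 the 95% Poisson intervals of KO2, 89.7 to 97.3 RPKM, and WT2, 84.4 to 91.5 RPKM, overlapped. Its separation of the groups thus rests on a step within counting error. Relative to Hspa5, both genes kept a narrow range over the libraries: the ratio of RPKM was 0.0958 to 0.11 for Hyou1 and 0.0768 to 0.0891 for Sdf2l1.

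Hsp90b1, which folds integrins and Toll-like receptors, was at 492 and 498 RPKM in WT and 451 and 523 RPKM in KO libraries. The KO libraries thus lay on either side of the wild-type pair, with means of 495 ± 4.25 and 487 ± 51.1 RPKM (log2 change -0.03, SE 0.12, limma adjusted p = 0.98). The direction turned with TMM and median-of-ratios factors (0.00 each), with the GC correction (0.08) and without KO1 (0.08). Its ratio to Hspa5 was 0.468 in WT1, 0.491 in WT2, 0.385 in KO1 and 0.442 in KO2, so the KO libraries had the lower ratios.

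The lectins and their partner isomerase had log2 changes between -0.10 and 0.02. Calr, the soluble lectin, was at 860.0 and 939 RPKM in WT and 806 and 1035 RPKM in KO libraries. KO1 was the lowest and KO2 the highest of the 4, and the means were 899.6 ± 56.1 and 920.2 ± 162 RPKM (log2 change 0.02, 95% interval -0.41 to 0.45, limma adjusted p = 0.988). The sign turned without KO2 (-0.16) and without WT1 (-0.04). Canx, the membrane-bound lectin, was at 337 and 341 against 299 and 336 RPKM, and is the gene of the 10 that was lower in both KO libraries (log2 change -0.10, SE 0.11, limma adjusted p = 0.974). KO2 and WT1 overlapped within their 95% Poisson intervals, 330.3 to 341 and 332 to 343 RPKM, and after the GC correction the change was 0.01. With TMM factors 0 of the 10 genes, Canx included, were lower in both KO libraries, and the share of all genes went from 17.8% to 12.9%. Pdia3 was at 648 and 646 against 616 and 689 RPKM, so that the WT libraries lay between the KO libraries (log2 change 0.01, SE 0.12, limma adjusted p = 0.991). It was -0.07 without KO2.

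The isomerases Pdia4 and Pdia6 kept nearly the same ratio in every library. Pdia4 was at 92.6 and 101 RPKM in WT and 97.6 and 113 RPKM in KO libraries, and Pdia6 at 296 and 318 against 309.6 and 357 RPKM. For both genes WT1 was the lowest library, KO1 lay between the WT libraries and KO2 was the highest, so the groups overlapped. The ratio of Pdia4 to Pdia6 stayed between 0.313 and 0.318 in the 4 libraries, a spread below the counting interval of Pdia4 alone (at most 2.72% to a side). The log2 changes were 0.12 for Pdia4 (SE 0.12) and 0.11 for Pdia6 (SE 0.12), each with a limma adjusted p of 0.974. Without KO2 they were 0.02 and 0.01, and without KO1 0.23 and 0.21.

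Xbp1 was at 148 and 146 RPKM in WT and 189 and 150.5 RPKM in KO libraries. KO1 held most of this difference. In KO2 the 95% Poisson interval of 146 to 155 RPKM overlapped that of WT1, 144 to 152 RPKM, so the separation of the groups rests on a step within counting error. The means were 147 ± 1.36 and 169.8 ± 27.3 RPKM (log2 change 0.20, 95% interval -0.18 to 0.57, limma adjusted p = 0.974). Without KO1 the change was 0.03, and without KO2 it was 0.36 (limma adjusted p = 0.0666, with 0.0666 to 0.9999 over all alternatives). Ighm, an immunoglobulin transcript of B cells, which carry much Xbp1 once they become plasma cells, was also highest in KO1, at 21.9 RPKM against 10.2 to 12.9 RPKM in the others. The 8 B and plasma cell markers summed to 27.7 RPKM there and to 14.6, 15.1 and 16.6 RPKM in the others. Of these markers Igkc and Ms4a1 were at 0 in all 4 libraries and Jchain was at 0.078 RPKM at most. The cells were sorted as CD3+ TCRαβ+, and the part of B lineage RNA in the Xbp1 value was not tested.

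**Figure D3:**
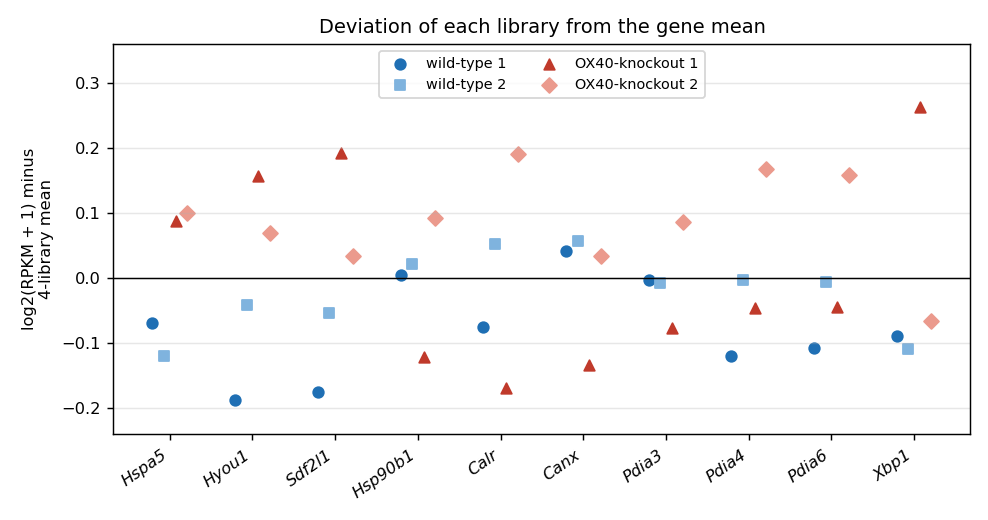
Difference between log2(RPKM + 1) in a library and the gene's mean over the 4 libraries, on the vertical axis, for the 10 genes ordered by role. KO1 (triangles) is the highest library for Hyou1, Sdf2l1 and Xbp1 and the lowest for Hsp90b1, Calr, Canx and Pdia3, and KO2 (diamonds) is the highest for Hspa5, Hsp90b1, Calr, Pdia3, Pdia4 and Pdia6.

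KO1 divided the 10 genes. Its deviation from the mean of the 4 libraries was 0.26 for Xbp1, 0.19 for Sdf2l1 and 0.16 for Hyou1, but -0.17 for Calr, -0.13 for Canx and -0.12 for Hsp90b1. Base composition moved with part of this: with all genes in 5 equal classes by transcript GC content, the lowest class holds Hsp90b1 and Canx and had a median deviation of -0.18 in that library, and the highest holds Sdf2l1 and had 0.21. The second class holds Hspa5 and Pdia6 and had a median of -0.11 in KO1, while Hspa5 deviated by 0.09 and Pdia6 by -0.04. Xbp1 and Calr share the middle class, where the median was -0.03, and they lie on opposite sides of it. Ncr1, Klrb1c, Eomes, Klrk1 and Klre1, markers of NK cells, were each lower in both libraries numbered 1 than in both numbered 2. Their sum was 262 RPKM in WT1 and 148 RPKM in KO1, against 394 RPKM in WT2 and 367 RPKM in KO2. The sort was for NK- cells, and Klrb1c alone stood at 42.8 RPKM in KO1 and 98.5 to 160 RPKM in the others. The part of NK markers in the chaperone levels was not tested. Without KO1, 9 of the 10 genes were higher in the remaining knockout library than in both WT libraries, where 25.9% of all genes were, and the median log2 change was 0.17. Without KO2, 6 were higher on average and the median was 0.01, beside a median of -0.03 over all genes tested. There KO1 lay above both WT libraries for 4 of the 10 and below both for 4, where 39% and 46.8% of all genes did. In limma, 3 of the 10 had an unadjusted p under 0.05 without KO1, beside 524 of all genes, and 5 did without KO2, beside 3832 of all genes.

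**Figure D4:**
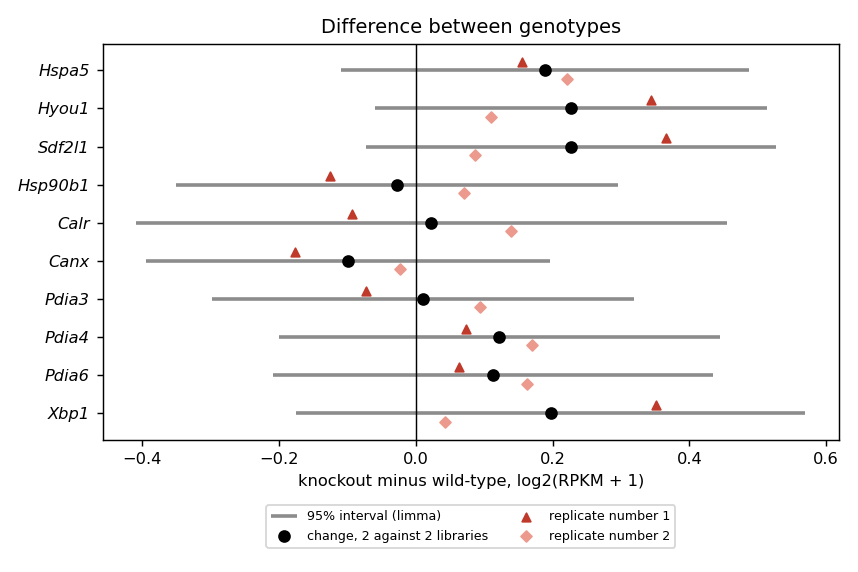
Knockout minus wild-type on the log2(RPKM + 1) scale for the 10 genes, with the limma estimate (black points), its 95% interval (grey bars) and the difference between libraries of the same replicate number (coloured points). Every interval includes 0, and for Hspa5, Hyou1, Sdf2l1, Pdia4, Pdia6 and Xbp1 both coloured points lie above 0.

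The genes that surround the chaperones in the pathway were read from 8 lists by role, 95 of whose genes passed the filter. With limma, 0 of the 95 were called in either direction, and 0 had an unadjusted p under 0.05. On average 58 were higher in the knockout (61.1%, against 43.4% of all genes), 21 were higher in both KO libraries (22.1%, against 8.66%) and 2 were lower in both (2.11%, against 17.8%). Their median log2 change was 0.04.

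The 4 stress sensors had a median of 0.24, and they did not go one way. That median was 0.05 without KO1 and 0.40 without KO2. Eif2ak3, the kinase PERK that slows translation, was at 98.1 and 86.8 RPKM in WT and 68.8 and 81.5 RPKM in KO libraries, lower in both (log2 change -0.30, SE 0.14, limma adjusted p = 0.974). Atf6 was at 12.6 and 13.2 against 16.9 and 14.9 RPKM, higher in both (log2 change 0.28, SE 0.13, limma adjusted p = 0.974). Among 11 transcription factors and genes of the PERK branch 9 were higher on average (81.8%, against 43.4% of all genes). None of the 11 was without overlap, against 26.4% of all genes, and their median went from 0.06 to -0.06 without KO1. Ppp1r15a, which restarts translation after stress, was at 56.5 and 39.7 against 88.5 and 54.1 RPKM, and Cebpb was at 22.6 RPKM in KO1 and 7.72 to 9.85 RPKM in the others (limma adjusted p = 0.974 for both).

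Folding helpers outside the 10 were mostly higher on average. Of 15 other chaperones and cochaperones 11 were higher in the knockout (73.3%, against 43.4% of all genes), with a median of 0.08. In both KO libraries 3 of the 15 were higher (20%, against 8.66% of all genes). Fkbp2, a prolyl isomerase, was at 69.1 and 72.4 against 80.3 and 79.6 RPKM, and Manf, a secreted partner of HSPA5, at 257 and 250.5 against 302 and 273 RPKM. Both were without overlap. Of 12 other thiol oxidoreductases 9 were higher (75%), with a median of 0.15, and 5 were higher in both KO libraries (41.7%). Without KO1 that median was 0.06. Txndc11 was at 34.5 and 36.9 against 43.7 and 38.9 RPKM and Txndc5 at 35.9 and 36.4 against 43.2 and 38.4 RPKM. The 12 genes of KDEL retrieval and of export in COPII vesicles had a median of 0.05, and 5 were higher in both KO libraries (41.7%). Surf4, a cargo receptor, was at 199 and 192 against 256 and 201 RPKM. Sec24d, a coat subunit, was at 16.1 and 17.2 against 20.4 and 18.3 RPKM. None of these 6 genes passed (limma adjusted p = 0.974 each).

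The medians of the remaining 3 lists were 0.00 for 10 genes of glycan trimming, -0.01 for 14 of degradation and 0.00 for 17 of the translocon and signal peptidase. Higher in both KO libraries were 1 of the 10 (10%), 4 of the 14 (28.6%) and 1 of the 17 (5.88%), against 8.66% of all genes. The translocon median was 0.10 without KO1 and -0.14 without KO2, so the KO libraries lay on opposite sides of 0. Edem2, which feeds misfolded glycoproteins to degradation, was at 58.0 and 60.2 against 66.2 and 64.6 RPKM, and the glucosidase gene Mogs at 58.5 and 61.4 against 71.6 and 60.7 RPKM. The degradation lectin Os9 was at 102 and 109 against 117 and 116 RPKM, and the channel subunit Derl1 at 48.0 and 47.7 against 56.0 and 49.8 RPKM. Sec61a1, the pore of the translocon, was at 335 and 308 against 411 and 336 RPKM, while Sec62, which aids translocation after synthesis, was at 24.05 and 25.8 against 19.1 and 24.8 RPKM. For Sec61a1 the groups did not overlap, but WT1 and KO2 lay 1 RPKM apart after rounding.

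**Figure D5:**
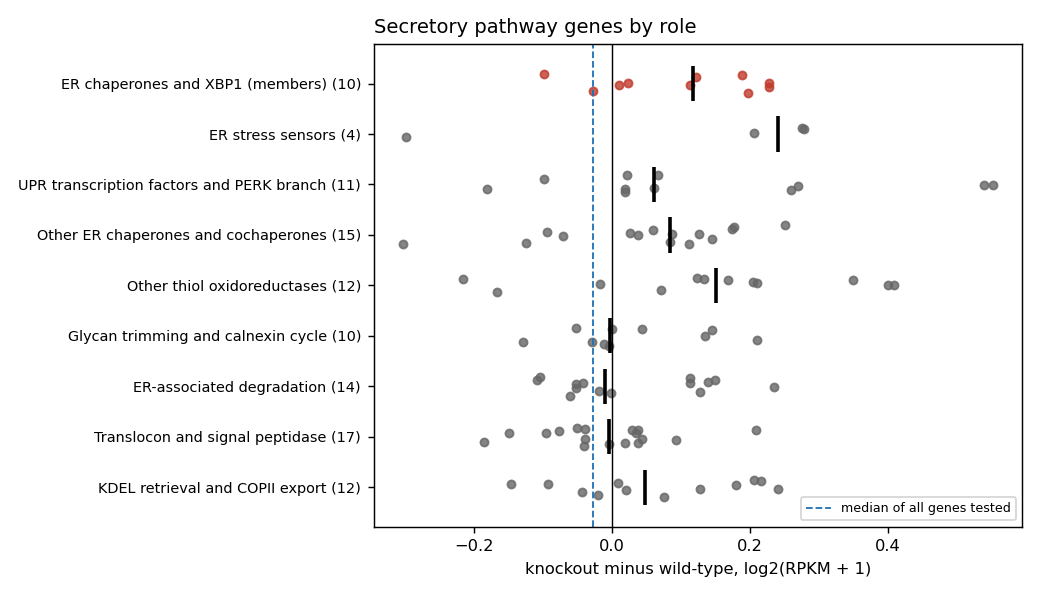
Knockout minus wild-type on the log2(RPKM + 1) scale for each tested gene of the 10 and of 8 further lists (points, spread vertically at random within a row), with the median of each list (black bars) and of all genes tested (dashed line at -0.03). The 10 genes at the top have a median of 0.12, and the degradation list has a median of -0.01.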

How the data were processed

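RNA was sequenced from 4 libraries of sorted DNT, 2 per genotype, with an Illumina TruSeq kit per the labels' protocols. The authors deposited 1 table of RPKM values, which are not counts. Bowtie 0.12.2 and the build mm8 are named in the submitters' processing notes. No source used here names the counting tool, annotation, strand use or handling of reads that fit several genes. RPKM was inferred as the unit from the values: where a gene has 1 transcript, its smallest values equal 1 read at the annotated length over a whole-number library total. At these totals 82.6% to 83.2% of values of such genes were whole reads within 0.02. For the 10 members, reads are the smallest whole numbers (tolerance 0.005) at a whole length from 200 to 6000 bases, 2076 to 31899 per library. Their 95% Poisson intervals reach at most 4.4% to a side and cover counting error only. Symbols, lengths and GC content came from GENCODE vM21, which named 34490 of 35275 IDs. RefSeq promoters were matched by symbol, and through Entrez IDs for 366 genes with another symbol.

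The test was limma 3.58.1 under R 4.3.3, run on log2(RPKM + 1) (empirical Bayes with a mean-variance trend, no block) across 11625 genes whose mean reached 1 RPKM. P-values were adjusted over all of them by the Benjamini-Hochberg method, with a threshold of 0.05. The scripts were tested on simulated data. The lists held 111 symbols, members included, and 109 were in the table (the other 2 were second spellings of Ero1l and Ero1lb). Below the filter were 4: Serpinh1, Uggt2, Derl3 and Srp54a. The text names all 10 members and Tnfrsf4, and from each further list the 2 genes of lowest p with a mean of 5 RPKM or more, none being called. Alternatives were other pseudocounts, filters, scalings, a GC correction, the replicate block and leaving out each library. Members, lists and rules were chosen with earlier results of these data known. Python 3.11.15, pandas 2.3.3 and matplotlib 3.10.9 were used for the rest.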

Additional observations from a re-analysis of the deposited data

How the results depend on the processing

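The number of genes called in the whole table was 0 as reported and, over 14 alternatives, 1 with quantile normalization, 5 with the replicate number as a block, 1 with the GC correction and the block together, and 0 to 1 when a library was left out. None of these was among the 10 genes, whose count stayed at 0 throughout. The replicate block is no paired analysis, since the labels do not tie libraries by number. The deviations of WT1 and KO1 from their groups correlated at 0.469 over all genes tested and at 0.197 over the 10. Of 140 values of single members 10 turned sign. These were Hsp90b1 with TMM factors (0.00436), median-of-ratios factors (0.00475), the GC correction (0.0792, also with the block) and without KO1 (0.0794), Canx with the GC correction (0.00587, also with the block), Calr without WT1 (-0.0407) or KO2 (-0.157), and Pdia3 without KO2 (-0.0707). With single libraries left out, Hsp90b1 ranged from -0.135 to 0.0794, Calr from -0.157 to 0.203 and Pdia3 from -0.0707 to 0.0922. Hspa5, Hyou1, Sdf2l1, Pdia4, Pdia6 and Xbp1 kept their direction under all 14. The number of the 10 higher on average was 6 to 9 when a library was left out, and the share of all genes was not counted there. The median of all genes was -0.0438 without WT1, -0.00872 without WT2, -0.0267 without KO1 and -0.0338 without KO2. In both KO libraries 4 lay above WT2 alone without WT1, and 6 above WT1 alone without WT2, where 17.3% and 20.9% of all genes did. In the KO library that was left, 9 lay above both WT libraries without KO1 and 4 without KO2, where 25.9% and 39% of all genes did. Below both WT libraries lay 1 without KO1 and 4 without KO2, where 41.5% and 46.8% of all genes did. The coding-length scale was added after seeing the data. An ERSE was found in 4 members on the forward strand alone and in 2 on the reverse. List medians moved by more than the spread between libraries in 32 of 126 cases, and the cause was not tested. Over the 14 alternatives they ranged from -0.01 to 0.05 for glycan trimming, -0.06 to 0.06 for degradation, 0.02 to 0.09 for retrieval and export and 0.05 to 0.12 for other chaperones. A lone library left in a group is assumed to vary like the other group. Depth limits the comparison of Xbp1 and Canx between KO2 and WT1, and of Sdf2l1 between KO2 and WT2, where counting intervals overlap.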

Other observations

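Outside the 10 genes, 12 tested genes held an ERSE in their promoter window. Creld2 and Dnajc3, both chaperone helpers of the endoplasmic reticulum, Ero1lb, an oxidase that supplies disulfide bonds, and Syvn1, the ubiquitin ligase of its degradation pathway, were among them, and the other 8 were in none of the lists. Creld2 was at 49.4 and 60.6 RPKM in WT and 58.6 and 62.7 RPKM in KO libraries. Dnajc3 was at 34.1 and 35.7 against 30.3 and 35.2 RPKM, and Syvn1 at 22.6 and 21.7 against 31.2 and 21.995 RPKM. Ero1lb was at 6.98 and 6.58 against 7.93 and 7.04 RPKM. All 17 tested genes with an ERSE, the 5 chaperone genes included, had a median log2 change of 0.02, with 9 higher on average (against 43.4% of all genes tested) and 3 higher in both KO libraries (against 8.66%). The 8912 tested genes with a window and no ERSE had a median of -0.03. These 4 genes were picked after their values were seen.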
